A study of Homo sapiens with 12 samples.

Results

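MKNK2 and 9 other genes of cap-dependent translation control were followed in 12 RNA sequencing libraries of human hepatoma cells, 10 genes of the 60664 identifiers measured. The genes were MKNK1, MKNK2, EIF4E, EIF4E2, EIF4EBP1, EIF4EBP2, EIF4G1, EIF4G2, EIF4A1 and EIF4A2. They were chosen by the levels of MKNK2 in MHCC-97H, where it was higher after knockdown of CENPU, so its values in that line are given as a description. The 4 groups had 3 samples each: Huh-7 si-NC and MHCC-97H si-NC, which carry the label WT and received si-NC, a control small interfering RNA, and Huh-7 si-CENPU and MHCC-97H si-CENPU, which are labelled as CENPU knockdown and received a small interfering RNA against CENPU. All cells were kept in DMEM with fetal bovine serum, and every group was transfected. The sequences of the small interfering RNAs and the time after transfection are not used here.

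Huh-7 cells secrete plasma proteins much as hepatocytes do, and MHCC-97H cells come from a hepatocellular carcinoma line known for its capacity to metastasise. Of 9 hepatocyte markers, 8 averaged at least 1 TPM in Huh-7, with a summed level of 6356 to 7355 TPM over its 6 libraries. In MHCC-97H 0 of the 9 did, and their summed level was 0.37 to 2.16 TPM, so hepatocyte markers were near 0 in that line, although both are labelled as hepatoma cells. Of 4 epithelial genes, KRT8, KRT18 and EPCAM averaged at least 1 TPM in both lines, and CDH1 did so in neither. CENPU, a subunit of the inner kinetochore and the target of the knockdown, measured 0.56, 0.84 and 0.53 TPM in the si-NC libraries of Huh-7 and 0.17, 0.11 and 0.45 TPM in its si-CENPU libraries. The MHCC-97H libraries had 1.17, 0.83 and 0.89 TPM under si-NC and 0.22, 0.45 and 0.24 TPM under si-CENPU. The groups did not overlap in either line, at levels near the bottom of the measured range. Replicate 1 of Huh-7 si-NC was set apart from the rest of its line, with a mean correlation of 0.965 with the other libraries of Huh-7 against 0.975 to 0.978 for the others.

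Most messenger RNAs of animal cells are recruited to the ribosome through the cap at their 5′ end. EIF4E binds the cap, the scaffold EIF4G1 joins it to the RNA helicase EIF4A1, and the 4E-binding proteins hold EIF4E away from the scaffold until mTORC1 phosphorylates them. The MNK kinases, encoded by MKNK1 and MKNK2, are switched on by ERK and p38, dock on the scaffold and phosphorylate EIF4E. Expression is given as TPM, a transcript abundance scaled for gene length and to a fixed total per library, so that levels of different genes can be set side by side. The data are RNA levels: protein amounts and phosphorylation were not measured.

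Promoters are shown for MKNK2, on which the selection rests, and for EIF4E and EIF4G1, the members whose searched promoters hold the E-box. The sequences are RefSeq's, from 250 bases before to 50 bases after the annotated start, on GRCh38.p14 and written 5′ to 3′ on the strand of the gene. Capitals mark CACGTG, the E-box bound by MYC and related factors, and TATAAA, the core of the TATA box. Both were searched on both strands, and CACGTG reads the same on either. The MKNK2 promoter is at chr19:2051195-2051494 on the minus strand, the EIF4E promoter at chr4:98929084-98929383 on the minus strand, and the EIF4G1 promoter at chr3:184314356-184314655 on the plus strand.
MKNK2: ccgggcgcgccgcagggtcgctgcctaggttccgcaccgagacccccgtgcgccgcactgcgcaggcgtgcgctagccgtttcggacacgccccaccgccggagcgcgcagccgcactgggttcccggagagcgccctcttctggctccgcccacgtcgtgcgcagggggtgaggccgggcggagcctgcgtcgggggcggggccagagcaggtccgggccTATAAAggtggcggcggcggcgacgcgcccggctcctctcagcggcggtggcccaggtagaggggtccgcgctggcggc
EIF4E: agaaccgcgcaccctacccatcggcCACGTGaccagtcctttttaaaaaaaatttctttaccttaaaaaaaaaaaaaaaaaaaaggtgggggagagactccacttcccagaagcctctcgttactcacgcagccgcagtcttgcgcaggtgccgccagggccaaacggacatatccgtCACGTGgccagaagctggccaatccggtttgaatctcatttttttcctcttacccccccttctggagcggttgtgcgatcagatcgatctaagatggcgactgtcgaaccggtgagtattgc
EIF4G1: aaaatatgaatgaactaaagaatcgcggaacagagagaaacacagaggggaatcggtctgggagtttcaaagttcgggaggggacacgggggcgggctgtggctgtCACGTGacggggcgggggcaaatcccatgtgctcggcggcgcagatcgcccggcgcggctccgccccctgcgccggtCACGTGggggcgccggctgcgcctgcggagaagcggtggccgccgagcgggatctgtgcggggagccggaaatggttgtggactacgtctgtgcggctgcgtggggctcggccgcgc
The MKNK2 window holds 1 TATAAA and 0 CACGTG, with 77.3% G and C and 45 CpG pairs. The EIF4E window holds 2 CACGTG, and so does that of EIF4G1, which has other annotated starts without it. Among 35116 promoter windows of the same length, 7.26% hold CACGTG and 11.5% hold TATAAA. Of the windows of MKNK1, EIF4E2, EIF4EBP2, EIF4G2, EIF4A1 and EIF4A2, that of EIF4A2 holds 1 TATAAA and none of the others holds either motif. No window was available for EIF4EBP1, so its promoter was not searched. A match is a run of letters and does not show that a factor binds.

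MKNK2 lies on chromosome 19 (GRCh38, 2037465 to 2051244, minus strand; positions of all members are those of GENCODE). In MHCC-97H it measured 20.46, 19.84 and 19.64 TPM with si-NC and at 31.67, 35.89 and 30.34 TPM with si-CENPU. All 3 si-CENPU libraries lay above all 3 si-NC libraries, whose values differed by less than 1 TPM. The mean was 19.98 ± 0.428 TPM (SD, n = 3) with si-NC and 32.6 ± 2.90 TPM (SD, n = 3) with si-CENPU, 1.63 times higher. On the scale log2(TPM + 1) the difference was 0.68 with a standard error of 0.101, which placed MKNK2 at 118 of 11088 tested genes in order of decreasing difference. This contrast chose the gene, so these values carry no test. Across all genes tested there, the groups did not overlap with higher values after si-CENPU in 3.19%, and limma called 0.00902% higher, that is 1 gene. Since these are bulk libraries, fewer cells of a type and less RNA per cell cannot be told apart in any of the differences given here.

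In Huh-7, which the choice did not use, MKNK2 was at 22.63, 28.08 and 27.06 TPM with si-NC and at 33.10, 30.23 and 31.28 TPM with si-CENPU. The groups did not overlap here either, with all 3 si-CENPU libraries higher, and the gap between the nearest libraries was small beside the spread within si-NC. The means were 25.9 ± 2.90 TPM (SD, n = 3) and 31.5 ± 1.45 TPM (SD, n = 3), a ratio of 1.22. The log2 difference was 0.28 with a standard error of 0.101 and a 95% interval of 0.06 to 0.50. Its unadjusted p in limma was 0.0184, and its adjusted p over 11088 genes was 0.994, so MKNK2 did not pass the test in Huh-7. The spread behind this error, interval and p was pooled over all 12 libraries. The MHCC-97H libraries used for the choice thus entered it, and the test is not wholly apart from the choice. With the 2 Huh-7 groups fitted alone, MKNK2 did not pass either. The groups did not overlap with higher values after si-CENPU in 3.79% of all tested genes in this line. The difference was 0.19 without replicate 1 of Huh-7 si-NC, the library that stood apart, and 0.34 without replicate 2. The response in MHCC-97H minus that in Huh-7 was 0.40 with a standard error of 0.142, a value that shares the contrast used for the choice and was not tested.

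MKNK1, the other MNK kinase (chromosome 1, 46557408 to 46616843, minus strand), measured 1.88, 3.95 and 3.09 TPM in the si-NC libraries of Huh-7 and 2.56, 1.91 and 2.99 TPM in its si-CENPU libraries. Levels in MHCC-97H were 7.67, 7.64 and 4.56 TPM under si-NC and 5.57, 6.18 and 5.88 TPM under si-CENPU. Its groups overlapped within each line, and every MHCC-97H library lay above every Huh-7 library. MKNK2 was the more abundant kinase transcript in all 12 libraries. The ratio of MKNK2 to MKNK1 in TPM was 7.11 to 12.04 in Huh-7 si-NC and 10.5 to 15.8 in Huh-7 si-CENPU, and 2.60 to 4.31 in MHCC-97H si-NC and 5.16 to 5.81 in MHCC-97H si-CENPU. The ratios of the si-NC and si-CENPU groups did not overlap in MHCC-97H and overlapped in Huh-7. Those in MHCC-97H contain the MKNK2 values used for the choice, so their separation is a description and carries no test.

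**Figure D1:**
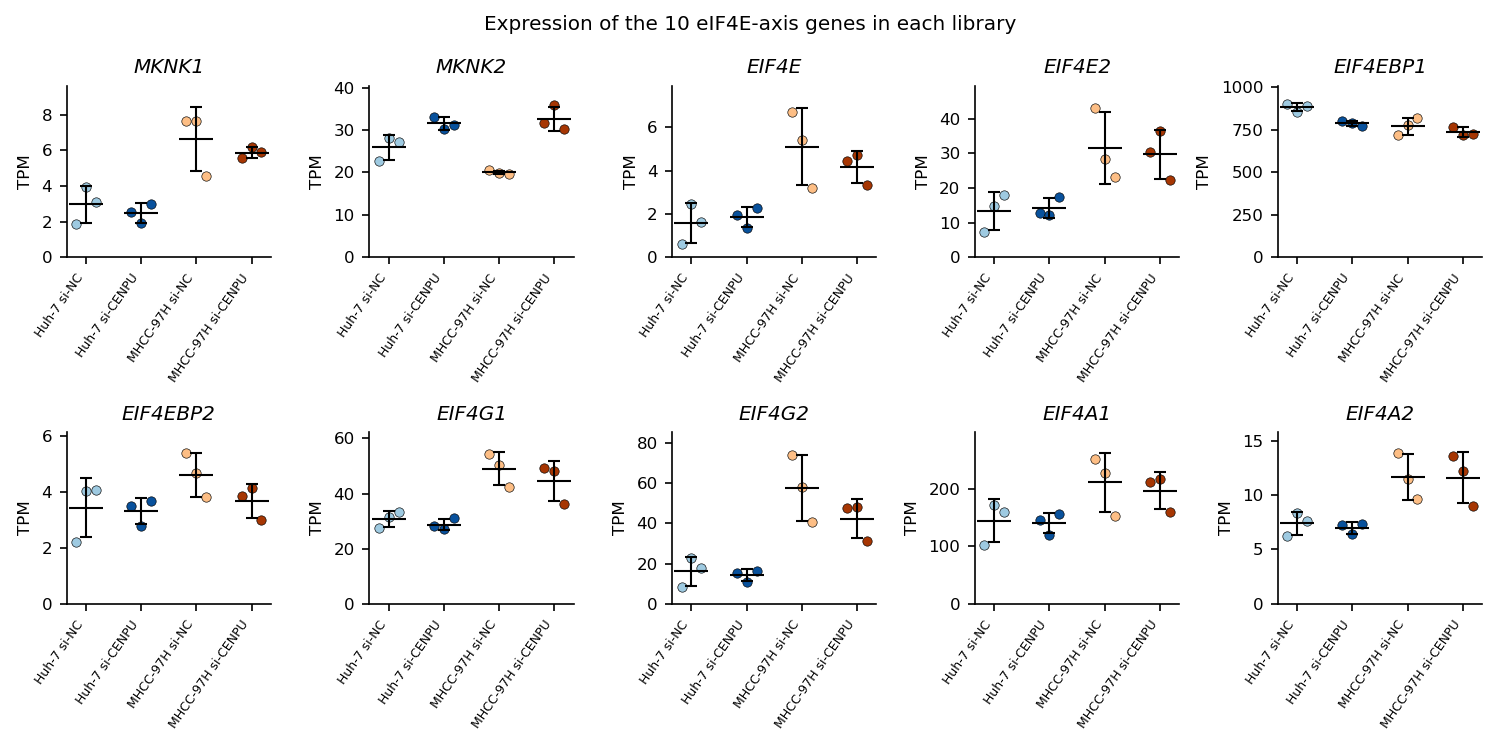
TPM of each of the 10 genes in each library (points, left to right replicates 1 to 3), with the group mean and SD (bars, n = 3); the y axis starts at 0 and differs between panels. MKNK2 lies higher with si-CENPU than with si-NC in both lines, at 31.67, 35.89 and 30.34 against 20.46, 19.84 and 19.64 TPM in MHCC-97H, while the groups of the other genes overlap within each line, except for EIF4EBP1 in Huh-7.

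The plot of levels by library shows that EIF4E, the cap-binding protein itself, was among the least abundant members. EIF4E (chromosome 4, 98871684 to 98930637, minus strand) measured 0.62, 2.48 and 1.61 TPM in the si-NC libraries of Huh-7 and 1.95, 1.37 and 2.27 TPM in its si-CENPU libraries. Its levels in MHCC-97H were 6.70, 5.41 and 3.18 TPM under si-NC and 4.46, 4.73 and 3.34 TPM under si-CENPU. The 3 control libraries of Huh-7 spanned a 4-fold range, and those of MHCC-97H lay above all of them. EIF4E2, a relative of EIF4E that binds the cap and takes part in repressing translation (chromosome 2, 232550052 to 232583644, plus strand), measured 7.15, 14.81 and 18.06 TPM in the si-NC libraries of Huh-7 and 12.78, 12.24 and 17.43 TPM in its si-CENPU libraries. Its levels in MHCC-97H were 43.21, 28.27 and 23.10 TPM under si-NC and 30.40, 36.52 and 22.23 TPM under si-CENPU. EIF4E2 exceeded EIF4E in every library, with a ratio between 5.23 and 11.5 over the 12.

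EIF4EBP1, which encodes the 4E-binding protein 4E-BP1 (chromosome 8), was the most abundant member in all 4 groups. It measured 901.43, 854.42 and 888.16 TPM in the si-NC libraries of Huh-7 and 802.09, 788.65 and 771.79 TPM in its si-CENPU libraries. These groups did not overlap, the si-CENPU libraries being lower. The MHCC-97H libraries had 717.34, 779.39 and 816.17 TPM under si-NC and 767.50, 718.61 and 721.80 TPM under si-CENPU, and these groups overlapped. In Huh-7 the log2 difference was -0.16 with a standard error of 0.0627 and a 95% interval of -0.30 to -0.02. The unadjusted p in limma was 0.0255 and the adjusted p was 1, so this difference did not pass the test. In Huh-7 the groups did not overlap with lower values after si-CENPU in 3.86% of all tested genes. EIF4EBP2, its relative (chromosome 10, 70404379 to 70428618, plus strand), measured 2.21, 4.04 and 4.06 TPM in the si-NC libraries of Huh-7 and 3.51, 2.78 and 3.68 TPM in its si-CENPU libraries. MHCC-97H gave 5.39, 4.68 and 3.81 TPM under si-NC and 3.87, 4.15 and 2.99 TPM under si-CENPU. The summed TPM of the 2 inhibitors divided by that of EIF4E was 346 to 1457 in Huh-7 si-NC and 342 to 578 in Huh-7 si-CENPU, and 108 to 258 and 153 to 217 in the corresponding groups of MHCC-97H. Every ratio in Huh-7 was above every ratio in MHCC-97H. The ratio was not corrected for GC content, in which EIF4EBP1 (65.5%) and EIF4E (42.8%) were the extremes among the members. In each si-NC group it was highest in the library whose levels rose most with transcript GC content. The line difference of EIF4E with si-NC was 1.27 on the log2 scale as deposited and 0.52 after GC correction. After trimmed-mean scaling, which uses no GC content, it was 0.88. GC correction takes out the overall level of each library along with the GC trend. That level does not enter a ratio within a library, so the fall from 1.27 to 0.52 does not measure GC content alone. Whether the ratio differs between the lines apart from GC content was not tested.

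The scaffold EIF4G1 (chromosome 3, 184314495 to 184335358, plus strand) measured 27.65, 31.60 and 33.26 TPM in the si-NC libraries of Huh-7 and 28.09, 26.94 and 31.06 TPM in its si-CENPU libraries. MHCC-97H gave 54.35, 50.30 and 42.51 TPM under si-NC and 49.08, 48.24 and 36.15 TPM under si-CENPU. EIF4G2, also known as DAP5, is a scaffold without the EIF4E-binding part (chromosome 11, 10797050 to 10809110, minus strand). It measured 8.38, 22.53 and 17.55 TPM in the si-NC libraries of Huh-7 and 15.48, 10.67 and 16.40 TPM in its si-CENPU libraries. The MHCC-97H libraries had 73.92, 58.36 and 40.84 TPM under si-NC and 47.49, 48.15 and 31.04 TPM under si-CENPU. EIF4G2 was below EIF4G1 in all 6 Huh-7 libraries, with a ratio of 0.303 to 0.713, and near it in MHCC-97H, with a ratio of 0.859 to 1.36. The si-NC and si-CENPU groups of each scaffold overlapped in each line.

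The helicase EIF4A1 (chromosome 17, 7572706 to 7579005, plus strand) was the second most abundant member in every group. It measured 101.57, 171.48 and 159.95 TPM in the si-NC libraries of Huh-7 and 145.65, 120.24 and 155.51 TPM in its si-CENPU libraries. Levels in MHCC-97H were 252.52, 227.82 and 153.31 TPM under si-NC and 212.66, 217.11 and 159.47 TPM under si-CENPU. Its relative EIF4A2 (chromosome 3, 186783205 to 186789900, plus strand) measured 6.28, 8.35 and 7.62 TPM in the si-NC libraries of Huh-7 and 7.24, 6.39 and 7.32 TPM in its si-CENPU libraries. The MHCC-97H libraries had 13.86, 11.54 and 9.61 TPM under si-NC and 13.57, 12.25 and 8.98 TPM under si-CENPU. EIF4A2 stood at 0.0471 to 0.0638 of EIF4A1 in the 12 libraries, and this ratio overlapped between si-NC and si-CENPU in each line. EIF4A1 shares its locus with the readthrough gene SENP3-EIF4A1 (3.57 to 5.72 TPM) and with small nucleolar RNAs, and EIF4A2 overlaps RFC4 on the other strand (2.80 to 15.6 TPM). No source used here gives the authors' strand setting or their rule for shared reads, so the values of these genes are uncertain to that extent.

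In order of mean level, EIF4EBP1 and EIF4A1 led in all 4 groups, and neither overlapped with the next gene. EIF4G1 and MKNK2 overlapped with each other in both Huh-7 groups, at 30.8 and 25.9 TPM with si-NC and at 28.7 and 31.5 TPM with si-CENPU. With si-NC in MHCC-97H, MKNK2 lay below EIF4E2 and above EIF4A2 without overlap with either. In MHCC-97H si-CENPU it lay between EIF4G2 and EIF4E2 and overlapped with both. At the low end, EIF4EBP2, MKNK1 and EIF4E each overlapped with the next of the 3 in both Huh-7 groups and in MHCC-97H si-NC. EIF4E was the lowest member in Huh-7 and EIF4EBP2 the lowest in MHCC-97H.

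The test asked of the 10 members whether the response to si-CENPU appears in Huh-7. All 10 had a mean of at least 1 TPM over the 12 libraries, the minimum for testing, and all were above 0 in every library. In limma 0 of 10 passed an adjusted p of 0.05, against 0.00902% of all tested genes, which is 1 gene. At an unadjusted p below 0.05 there were 2, MKNK2 and EIF4EBP1, and 507 of the 11088 tested genes. The log2 differences ran from -0.17 for MKNK1 to 0.28 for MKNK2, with 3 of 10 above 0 and a median of -0.04, against a median of 0.01 over all tested genes. The other 8 members had intervals that included 0. For EIF4E the difference was 0.21 with a 95% interval of -0.43 to 0.85, and for EIF4G2 it was -0.10 with an interval of -0.83 to 0.64. Changes of that size in Huh-7 were thus not detectable with 3 libraries a group. Nothing in the labels says whether the 3 samples of a group were separate cultures, so the p-values measure only how far these samples spread, which may be technical.

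In MHCC-97H the log2 differences of the other 9 members ran from -0.43 for EIF4G2 to -0.01 for EIF4A2 with TPM as deposited, and MKNK2 was at 0.68. The values nearest 0 changed sign with the scaling: EIF4A2 was at 0.067 after trimmed-mean scaling and 0.082 after GC correction, EIF4E2 at 0.022 and 0.023, and EIF4EBP1 at 0.022 and -0.089. The groups of all 9 overlapped, and in all tested genes they did not overlap with lower values in 3.76%. The median of the 10 was -0.10, beside -0.05 over all tested genes, of which 35.0% lay above 0. That share was 51.8% after trimmed-mean scaling, 50.6% after GC correction and 47.4% with quantile normalization. These scalings bring the libraries to a like level by construction. With single libraries left out, it ran from 28.1% without MHCC-97H si-CENPU replicate 2 to 50.4% without MHCC-97H si-CENPU replicate 3. EIF4EBP2 differed by -0.27 with a standard error of 0.197, EIF4E by -0.20 with a standard error of 0.290 and EIF4EBP1 by -0.07 with a standard error of 0.0627. The plot of the responses sets these values beside those in Huh-7. Of the values of MKNK2 in it, those in MHCC-97H were used for the choice and those in Huh-7 were not.

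**Figure D2:**
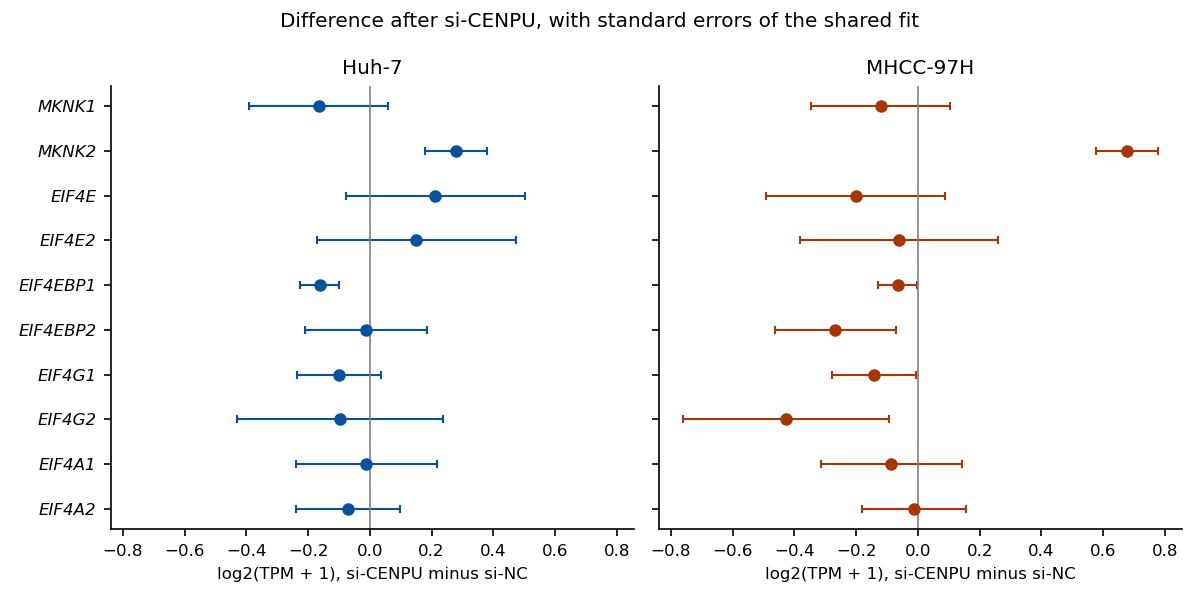
Difference on log2(TPM + 1), si-CENPU minus si-NC, for each gene in Huh-7 (left) and MHCC-97H (right); points are differences of the group means and bars the standard errors of the shared fit. MKNK2 stands at 0.28 in Huh-7 and 0.68 in MHCC-97H, while the other 9 genes lie between -0.43 and 0.21.

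Between the lines, the log2 differences of the members ran from -0.35 for MKNK2 to 1.84 for EIF4G2 with si-NC. MKNK2 entered the choice through the MHCC-97H libraries and is described without a test: the difference, MHCC-97H minus Huh-7, was -0.35 with si-NC, where the groups did not overlap, and 0.05 with si-CENPU, where they did. After trimmed-mean scaling these values were -0.90 and -0.38. Of the other 9 members, 7 were higher in MHCC-97H with si-NC and 1 was lower (limma, adjusted p below 0.05). Across all tested genes 50.1% were called higher and 22.9% lower, so the members' share of calls is to be read against a background of 73%. The median log2 difference of all tested genes was 0.49, and 5557 genes were called higher against 2542 lower. With MKNK2 counted, the groups did not overlap for 6 of the 10 members with higher and 2 with lower values in MHCC-97H, against 49.6% and 23.4% of all tested genes. After trimmed-mean scaling the median was 0.05, with 3950 called higher and 3646 lower. With quantile normalization the median was 0.13, with 4340 and 3522, and with correction for GC content it was 0.01, with 3968 and 3798. Rescaling without mitochondrial and the 100 most abundant genes left it at 0.50, with 5331 and 2668.

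EIF4G2 differed most, by 1.84 on the log2 scale with si-NC (standard error 0.333, limma adjusted p = 0.000432), 3.57 times in TPM and 1.34 above the median of all genes. EIF4E differed by 1.27 (standard error 0.290, limma adjusted p = 0.00211), 3.25 times in TPM. EIF4E2 differed by 1.22 (limma adjusted p = 0.00502) and MKNK1 by 0.95 (limma adjusted p = 0.00276). These 4 genes had non-overlapping groups and passed the test under every alternative in which they were tested, with differences of 1.29 to 1.48 for EIF4G2, 0.52 to 0.88 for EIF4E, 0.68 to 0.83 for EIF4E2 and 0.49 to 0.53 for MKNK1 under these 3 scalings. EIF4G1 differed by 0.65 (limma adjusted p = 0.00120), but by 0.09 (adjusted p = 0.470) after trimmed-mean scaling.

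The helicases and the inhibitors depended on the scaling. EIF4A2 was higher by 0.58 (limma adjusted p = 0.00872), but by 0.07, 0.15 and 0.03 after trimmed-mean scaling, quantile normalization and GC correction, none of which passed the test. EIF4A1 was higher by 0.55 (limma adjusted p = 0.0481) with overlapping groups, and its difference was -0.02 after trimmed-mean scaling. The call for EIF4A1 was lost without any 1 of 8 libraries, with the difference down to 0.32 (adjusted p = 0.201) without Huh-7 si-NC replicate 1. EIF4EBP1 was lower by a log2 difference of -0.19 (standard error 0.0627, limma adjusted p = 0.0155), and this call was lost without MHCC-97H si-NC replicate 1 (adjusted p = 0.0614) and with quantile normalization (-0.07, adjusted p = 0.363). It was -0.77 (adjusted p = 0.00734) after trimmed-mean scaling and -0.33 (adjusted p = 0.00250) after GC correction. EIF4EBP2 differed by 0.36 (limma adjusted p = 0.115) as deposited, and by -0.36 (adjusted p = 0.00384) after GC correction. The plot of the line difference under 4 scalings shows these shifts for each member.

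**Figure D3:**
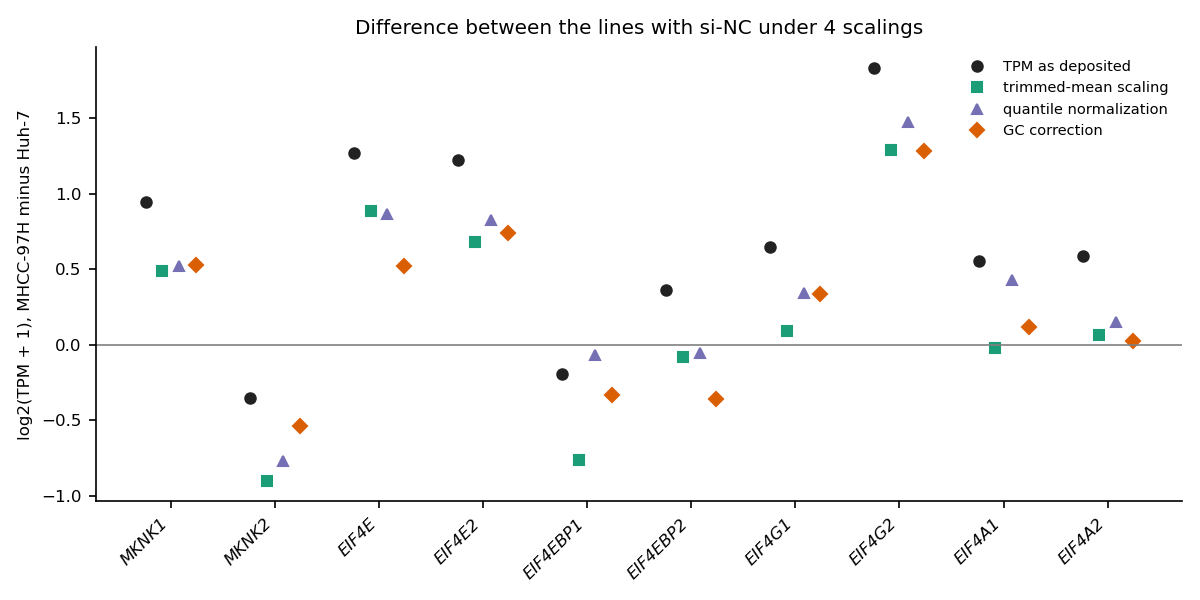
Difference on log2(TPM + 1), MHCC-97H minus Huh-7 with si-NC, for each gene with TPM as deposited and after trimmed-mean scaling, quantile normalization and GC correction. EIF4G2, EIF4E, EIF4E2 and MKNK1 stay above 0 under all 4, EIF4G1 and EIF4A2 come near 0 under some, EIF4A1 falls to -0.02 under trimmed-mean scaling and EIF4EBP2 goes from 0.36 to below 0 under the other 3.

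With si-CENPU, in libraries other than those of the si-NC comparison, 6 of the 9 tested members were higher in MHCC-97H and 0 lower, against 46.2% and 23.9% of all tested genes. The groups did not overlap for 7 of the 10 members with higher and 1 with lower values, against 49.3% and 25.4% of all tested genes. EIF4G2 differed by 1.50 (limma adjusted p = 0.00183), EIF4E2 by 1.01 (adjusted p = 0.0152), MKNK1 by 0.99 (adjusted p = 0.00217) and EIF4E by 0.86 (adjusted p = 0.0207). EIF4A2 differed by 0.64 (limma adjusted p = 0.00538) and EIF4G1 by 0.60 (adjusted p = 0.00206). EIF4A1, at 0.48 (adjusted p = 0.0842), EIF4EBP2, at 0.11 (adjusted p = 0.637), and EIF4EBP1, at -0.10 (adjusted p = 0.183), did not pass. EIF4EBP1 passed as lower in MHCC-97H after trimmed-mean scaling (-0.53, adjusted p = 0.0446) and GC correction (-0.29, adjusted p = 0.00532), and EIF4EBP2 after GC correction (-0.48, adjusted p = 0.000604). MKNK1, EIF4E2, EIF4G2 and EIF4A2 kept their calls under trimmed-mean scaling, quantile normalization and GC correction, EIF4A2 with smaller differences of 0.25, 0.28 and 0.22. EIF4E lost its call after GC correction (0.25, adjusted p = 0.142) and EIF4G1 after trimmed-mean scaling (0.18, adjusted p = 0.152). Leaving out Huh-7 si-CENPU replicate 2 ended the calls of EIF4E (adjusted p = 0.0765) and EIF4E2 (adjusted p = 0.0521), and so did leaving out MHCC-97H si-CENPU replicate 2 (0.0672 and 0.0627). Without MHCC-97H si-CENPU replicate 1 the adjusted p of EIF4E was 0.0583.

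Within each line, 8 members moved together from library to library, and MKNK2 and EIF4EBP1 did not move with them. After subtraction of the line mean from log2(TPM + 1), the 28 pairs among MKNK1, EIF4E, EIF4E2, EIF4EBP2, EIF4G1, EIF4G2, EIF4A1 and EIF4A2 had Pearson correlations of 0.65 to 0.98 over the 12 libraries, with a median of 0.84. MKNK2 correlated with these 8 at -0.20 to 0.24 and EIF4EBP1 at -0.47 to 0.07. These are descriptions over libraries that share their RNA and preparation, and the 8 were set apart after the values were seen. Only the line mean was subtracted, so the difference between si-NC and si-CENPU remains in the levels. For MKNK2 it includes the MHCC-97H difference used for the choice, so its low correlations are not separate from that choice. In MHCC-97H si-NC, replicate 1 was the highest of its group for 8 of 8 and replicate 3 the lowest for 8 of 8. In Huh-7 si-NC, replicate 1 was the lowest for 8 of 8, and in Huh-7 si-CENPU replicate 3 was the highest and replicate 2 the lowest for 8 of 8.

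The base composition of the libraries moved with this pattern. The correlation across genes between a library's deviation from the mean and transcript GC content (Spearman's rho) was -0.53 in MHCC-97H si-NC replicate 1 and 0.47 in replicate 3, and 0.33 in Huh-7 si-NC replicate 1. In Huh-7 si-CENPU it was 0.13 in replicate 2 and -0.23 in replicate 3. The transcripts of MKNK2 and EIF4EBP1 were the members richest in G and C, at 63.0% and 65.5%, whereas the others ranged from 42.8% for EIF4E to 57.0% for EIF4G1, around a median of 52.8% over tested genes. After correction of each library for its GC trend the median of the 28 correlations was 0.34, with 24 of 28 above 0. The correction takes out each library's overall level along with the trend. After the same correction the log2 difference of MKNK2 after si-CENPU was 0.29 in Huh-7, with a limma adjusted p of 0.327, and 0.66 in MHCC-97H. The plot of library trends shows both measures side by side.

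**Figure D4:**
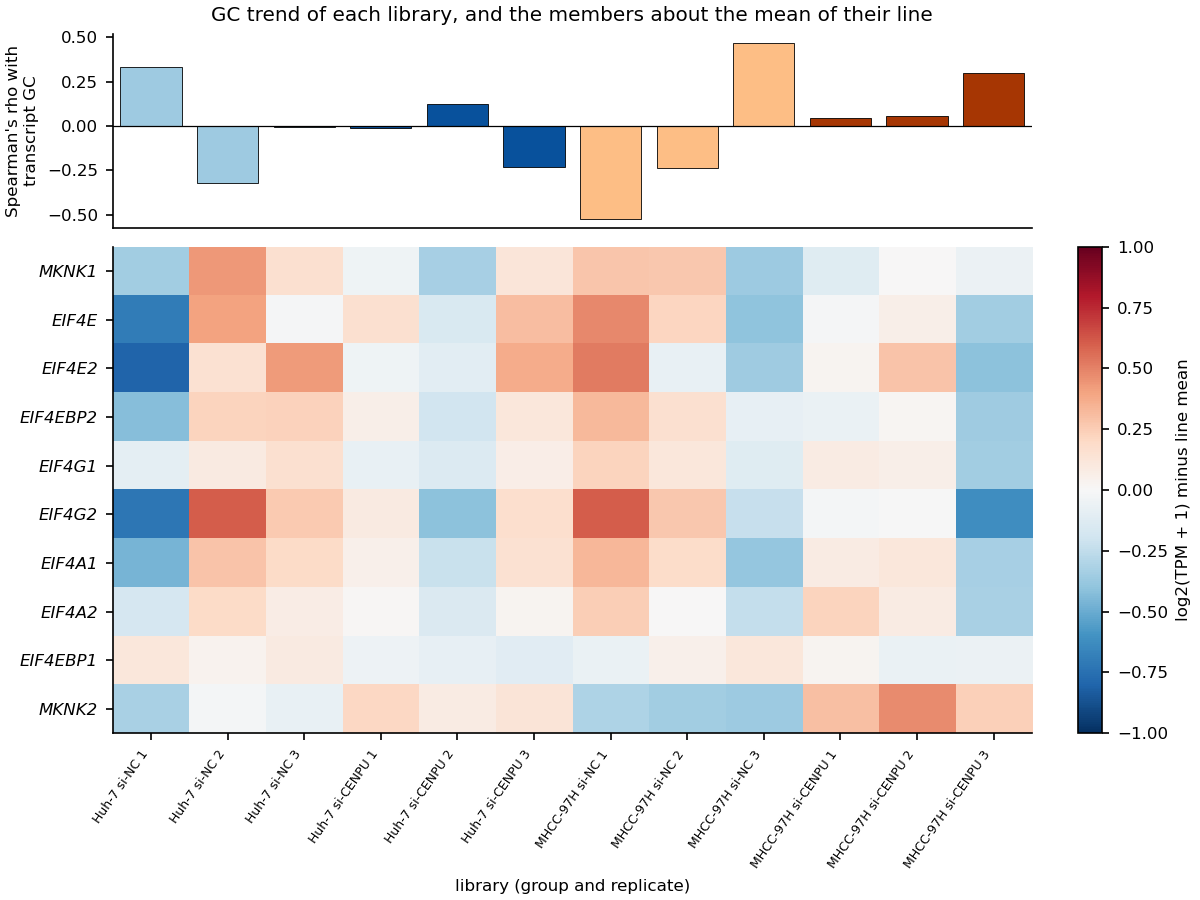
Top, Spearman's rho across genes between each library's deviation from the mean and transcript GC content; bottom, log2(TPM + 1) of each gene minus the mean of its line, by library, on a colour scale from -1 to 1. Red is above and blue below the line mean: for the upper 8 genes MHCC-97H si-NC replicate 3, with a rho of 0.47, is blue and replicate 1, at -0.53, is red, while MKNK2 is red in all 6 si-CENPU libraries.

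Among 5614 genes with a mean of at least 5 TPM, those whose line-centred levels were most like those of MKNK2 over the 12 libraries were PCNX3 (Pearson r = 0.97), GANAB (0.94), SPINDOC (0.94), TLE5 (0.94) and ADAM15 (0.93). PCNX3 averaged 12.4 and 17.9 TPM in Huh-7 with si-NC and si-CENPU, and 18.3 and 30.4 TPM in MHCC-97H. GANAB, the catalytic subunit of glucosidase II, averaged 18.7 and 26.9 TPM in Huh-7 and 21.4 and 44.6 TPM in MHCC-97H. The lowest correlations were those of ICAM3 (-0.94), COMMD5 (-0.90) and EVA1B (-0.87). ICAM3, a leukocyte adhesion molecule, averaged 112 and 102 TPM in Huh-7 and 12.7 and 10.1 TPM in MHCC-97H. These genes were picked for their likeness out of all those compared, so the correlations are a description. The line-centred levels keep the difference between si-NC and si-CENPU, which in MHCC-97H was the contrast used to choose MKNK2. Likeness to MKNK2 thus includes a like difference in that contrast and is not only variation from library to library.

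The pathway around the members was read from 7 lists with 125 genes, of which 106 could be tested. After si-CENPU 0 of 106 passed the limma test in Huh-7 and 0 in MHCC-97H, with 2 (1.89%) and 3 (2.83%) at an unadjusted p below 0.05. Of all tested genes, 507 (4.57%) and 379 (3.42%) were below it, so the listed genes did not exceed the background. Those in Huh-7 were MYC, whose translation depends on EIF4E (3.87 TPM with si-NC and 1.70 TPM with si-CENPU), and MLST8, a subunit of mTORC1 (152 and 135 TPM). In MHCC-97H they were NRAS (3.93 and 2.31 TPM), the MAP kinase phosphatase DUSP4 (5.77 and 4.47 TPM) and the kinase AKT1 (71.7 and 85.1 TPM). EIF4E3, another relative of EIF4E, was at 0.02 to 0.36 TPM over the 12 libraries and could not be tested.

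Between the lines with si-NC, 71 of the 106 were higher in MHCC-97H and 11 lower, and with si-CENPU 71 were higher and 10 lower. Under the alternative settings that kept these 106 genes, 55 to 73 were higher and 8 to 15 lower with si-NC. Without the filter 74 of 125 were higher, and with a mean of at least 5 TPM 57 of 79. After trimmed-mean scaling, quantile normalization and GC correction 59, 64 and 56 of the 106 were higher. Of all 11088 tested genes, 3950, 4340 and 3968 were called higher there, against 5557 as deposited. Of the MAP kinases upstream of the MNK kinases, 9 of 17 were higher and 3 lower. MAPK3, which encodes ERK1, was listed at 0 in all 3 Huh-7 si-NC libraries and averaged 50.5 TPM in MHCC-97H si-NC, and ARAF averaged 7.71 and 38.5 TPM. Of the mTORC1 pathway upstream of the 4E-binding proteins, 8 of 20 were higher and 3 lower: AKT1 averaged 28.8 TPM in Huh-7 and 71.7 TPM in MHCC-97H, and RPS6KB2, an S6 kinase, 268 and 142 TPM. Of the other cap complex factors and EIF4E-binding proteins, 11 of 16 were higher and 1 lower, with the poly(A)-binding protein PABPC1 at 33.0 and 142 TPM and PDCD4, an inhibitor of EIF4A, at 1.63 and 10.6 TPM. Of the remaining initiation factors 23 of 29 were higher and 3 lower, the latter including EIF6 (1937 and 965 TPM). Of the elongation factors 6 of 8 were higher, among them EEF1A2 (1.92 and 511 TPM). Of the transcripts that depend on EIF4E for their translation 12 of 14 were higher and 1 lower, with CCND3, a D-type cyclin, at 7.05 and 79.2 TPM, and of other MNK substrates 2 of 2, with HNRNPA1 at 62.7 and 180 TPM. These counts share the background of the member counts given above, with 50.1% of all tested genes called higher.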

How the data were processed

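RNA was sequenced from 12 samples, 3 in each of 4 groups named by the sample titles. The authors deposited TPM, made with HISAT2 and StringTie on GRCh38.p13 per the submitters' processing notes; no source used here gives the annotation or the strand setting. The columns summed to between 998416 and 999065, and no 2 were identical. Since TPM keeps no depth, that of the libraries is unknown, and counting intervals cannot be given. An exact 0 can be a failed estimate.

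TPM was put on log2(TPM + 1), which understates the change of low genes. The 11088 genes averaging 1 TPM or more were fitted with limma 3.58.1 in R 4.3.3, with 1 mean per group over all 12 samples and a variance trend. Two-sided p-values were adjusted per contrast after Benjamini and Hochberg. The fit was tried on simulated data with noise independent between genes and libraries. Those data lacked the GC trends of the libraries here, so the trial does not show how the fit behaves under such trends. Gene positions and GC content are those of GENCODE release 29 (GRCh38), with a GC value for 98.9% of tested genes. Promoters came from RefSeq, which gave at least 1 window for each of the 9 members outside chromosome 8.

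The members and gene lists were chosen with earlier results of these data known. Named are all members, CENPU, up to 4 genes per list and contrast with the smallest adjusted p, and the 5 genes most and 3 least like MKNK2. Alternatives were no filter or a minimum mean of 5 TPM, pseudocounts of 0.1 and 0.5, trimmed-mean scaling, quantile normalization, rescaling without mitochondrial and the 100 most abundant genes, a fit of the compared groups alone, a replicate block, no variance trend, robust moderation, GC correction, GC correction with the block, and leaving out each library. Figures were drawn with matplotlib 3.10.9.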

Additional observations from a re-analysis of the deposited data

How the results depend on the processing

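In Huh-7, 0 of the 10 members were called under any of the 25 alternatives that tested them, and the MKNK2 difference stayed between 0.19 and 0.34. In MHCC-97H the MKNK2 difference was 0.61 to 0.73 without single libraries and 0.66 to 0.77 otherwise. The difference of the MKNK2 responses, 0.40 as deposited, was 0.53 after trimmed-mean scaling and 0.53 with quantile normalization.

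With si-NC, the count of members higher in MHCC-97H was 4 after trimmed-mean scaling against 7. The count of lower members was 0 with quantile normalization or no variance trend, 2 with GC correction, alone or with the replicate block, and 0 to 1 without single libraries. With si-CENPU the lower count was 1 after trimmed-mean scaling and 2 with GC correction, alone or with the replicate block, against 0. Of the listed pathway genes, 16 were lower with si-CENPU after trimmed-mean scaling, quantile normalization or GC correction, against 10. Of all 11088 tested genes, 3544, 3515 and 3754 were called lower with si-CENPU under these scalings, against 2647 as deposited. The lower counts of members and listed genes with si-CENPU are to be read against that background, which rose as well.

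EIF4EBP2 with si-NC turned to -0.085, -0.058 and -0.36 after trimmed-mean scaling, quantile normalization and GC correction (-0.36 with the replicate block), and with si-CENPU to -0.23, -0.22 and -0.48 (-0.48 with the replicate block). EIF4A1 with si-NC turned to -0.019 after trimmed-mean scaling, and EIF4EBP1 with si-CENPU to 0.10 with quantile normalization. MKNK2, at 0.05 between the lines with si-CENPU, was at -0.38, -0.24 and -0.17 after the same 3 scalings. In MHCC-97H, leaving out single libraries moved EIF4E2 between -0.26 and 0.18, EIF4A1 between -0.30 and 0.058 and EIF4A2 between -0.13 and 0.15. The causes were not tested beyond the scalings' own construction.

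Leaving out single libraries turned the sign of 7 uncalled Huh-7 differences, which ranged from -0.38 to 0.011 for MKNK1, -0.087 to 0.46 for EIF4E, -0.21 to 0.40 for EIF4E2, -0.23 to 0.10 for EIF4EBP2, -0.48 to 0.18 for EIF4G2, -0.24 to 0.13 for EIF4A1 and -0.17 to 0.0091 for EIF4A2. With a mean TPM of at least 5, MKNK1, EIF4E and EIF4EBP2 were not tested.

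The deviations of same-numbered si-NC and si-CENPU samples correlated at -0.03, -0.09 and 0.03 in Huh-7 and at -0.03, -0.09 and 0.13 in MHCC-97H. Samples did not all correlate best with their own number. Nothing in the labels says whether same-numbered samples belong together, and correlations this small cannot exclude it. With the replicate block 0 members were called in Huh-7, MKNK2 had a limma adjusted p of 0.795, and EIF4A1 with si-NC lost its call (adjusted p = 0.0677). In this balanced design the block cannot change a difference, only its error. TPM gives no depth, so what depth limits cannot be stated.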
